A study of Mus musculus with 12 samples.

Results

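The genes described here encode the proteins of the cytosolic ribosome and the elongation factors that work on it. They were chosen by symbol (the Rpl and Rps names, Rplp0, Rplp1, Rplp2, Rpsa, Eef1a1, Eef1b2, Eef1d, Eef1g and Eef2) and by a mean TPM (a transcript level scaled for length and depth) of at least 50 in the vehicle libraries. Of 55450 genes listed, 94 had such a symbol and 84 reached the level: 44 large subunit proteins, 32 small subunit proteins, 3 proteins of the P stalk and 5 elongation factors. The cells were CD8 T cells of pmel-1 mice, which carry a transgenic T cell receptor for a peptide of the melanoma antigen gp100. All groups were wild type for Ucp2, were activated with hgp100 25-33 peptide or with antibodies to CD3 and CD28 (the labels give both routes and do not say which one a library had), and were then expanded with 10 ng/ml IL-2 over 4 days. The 12 libraries formed 4 groups of 3: vehicle, which was culture media, genipin, N-acetylcysteine (NAC), and genipin with NAC. Genipin, from gardenia fruit, serves as an inhibitor of the carrier protein Ucp2 of mitochondria, and NAC is an antioxidant that supplies cysteine. Doses are not in the labels, and these do not say whether replicates came from separate mice or cultures, so the p-values measure the spread between these libraries, which may be technical.

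Each ribosome joins a small subunit, which reads the messenger RNA, to a large subunit, which forms the peptide bond, and every ribosome needs close to equal numbers of most of its proteins. Eef1a1 brings aminoacyl-tRNA to the ribosome, and the exchange complex of Eef1b2, Eef1d and Eef1g recharges Eef1a1 with GTP. Eef2 moves the ribosome on by a codon. Transcripts of these genes typically begin with a C followed by an unbroken run of pyrimidines, the 5' terminal oligopyrimidine (TOP) motif, through which the mTORC1 pathway and Larp1 control their translation and storage. Activated T cells build many ribosomes before they divide.

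Each library held between 20838894 and 31098648 expected counts in all, and all 84 members had at least 2883 counts in every library. Replicate 1 of genipin with NAC differed most from its own group: its chi-square per degree of freedom over genes was 6.77 and 7.75 against replicates 2 and 3, which gave 2.08 between them. All 12 CD8 T cell genes checked were tested and abundant, with summed levels of 8297 to 8418 TPM with vehicle, 10290 to 10520 with genipin, 10970 to 11220 with both compounds and 9260 to 9324 with NAC. Summed markers of natural killer cells ran from 106 to 111 TPM with vehicle, 254 to 277 with genipin, 70.4 to 72.0 with both and 35.4 to 37.2 with NAC, and those of B cells from 32.6 to 33.2, 49.6 to 53.7, 126 to 129 and 171 to 181 TPM, although Ms4a1, Cd79a and Pax5 had at most 8 counts in any library. Summed CD4 T cell markers ran from 15.6 to 19.8 TPM with vehicle, 18.2 to 21.6 with genipin, 21.3 to 26.4 with both and 37.1 to 43.1 with NAC. Only 2 of these 4 markers were tested, and they differed. Against vehicle, Cd4 had a log2 fold change of -1.85 with genipin and 2.02 with NAC, and Zbtb7b 0.00 and 0.64. The natural killer and B cell markers also differed within their lists. With both compounds against vehicle, the natural killer marker Fcer1g had -1.24, but Eomes had 0.35, Klrb1c 0.94 and Ncr1 1.06. With genipin against vehicle, the B cell markers Ighm and Ighd had 0.60 and 0.24, but Cd79b had -0.99. Myeloid markers, of which Siglech and S100a8 were at 0 in every library, ran from 5.55 to 6.58, 9.52 to 10.6, 10.3 to 12.7 and 3.56 to 3.76 TPM in the same order, and those of red cells and platelets from 0.19 to 2.36 TPM over all libraries. Enough counts for a test were held by 2 of 11 myeloid, 4 of 6 natural killer and 1 of 6 red cell and platelet markers. These sums thus rest on few genes. The part of such other cells in the results was not tested. In bulk RNA, fewer cells of a type and less RNA per cell cannot be told apart.

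The starts of the genes are shown first, because the TOP run is the sequence that these transcripts are known to share. Each line gives 30 bases of the RefSeq promoter table (GRCm38.p6) in the direction of transcription, 5' to 3', with the longest run of C and T that begins with C in capitals.
Eef1a1, chr9:78481710-78481739, minus strand: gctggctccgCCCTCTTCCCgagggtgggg
Rps18, chr17:33955647-33955676, minus strand: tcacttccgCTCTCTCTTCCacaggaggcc
Rpl22, chr4:152325679-152325708, plus strand: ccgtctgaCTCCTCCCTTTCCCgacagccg
Rpl22l1, chr3:28805500-28805529, plus strand: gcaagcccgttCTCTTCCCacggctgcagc
Rps27, chr3:90213631-90213660, minus strand: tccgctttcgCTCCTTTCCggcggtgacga
Rps27l, chr9:66946054-66946083, plus strand: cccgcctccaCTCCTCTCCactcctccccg
Rps26, chr10:128626484-128626513, minus strand: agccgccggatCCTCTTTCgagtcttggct
Rpl24, chr16:55966227-55966256, plus strand: acctcaaacccaCTCCCCgccaatgctgta
Rplp0, chr5:115559468-115559497, plus strand: gaccgcctggttCTCCTataaaaggcacac
Eef2, chr10:81176635-81176664, plus strand: acgtcagcggtCTCTTCCgccgcagccgcc
The first 7 have a run of at least 8 bases between 50 bases before and 50 after the annotated start, on the sense strand, and the last 3 (Rpl24, Rplp0 and Eef2) have a shorter one. Of the 62 members in the promoter table, 51 (82.3%) had such a run, against 32.0% of 27025 genes in the table. A run could lie anywhere in that stretch and need not be a TOP motif, which opens the transcript. Those printed for Rpl22 and Rps27l begin at -39 and -22 from the annotated start and end before it. The letters CCGGAAGT, searched on both strands of the whole 300-base promoter, were present in 21.0% of these members and in 4.31% of all genes, and AAGATGGC in 8.06% and 3.19%. These motifs were chosen with the values known, and a match is a description of the letters only.

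The members were abundant transcripts of these cells, and the rule itself required a mean of at least 50 TPM with vehicle. On the TPM scale with vehicle, the 3 highest were Eef1a1 at 21635 ± 608 (SD, n = 3), Rps18 at 11125 and Rplp1 at 10755. The 3 lowest were Eef1g at 1190 TPM, the Rps27 paralog Rps27l at 688 TPM and the exchange factor Eef1d at 347 TPM. Just outside the rule lay Rpl7l1 at 49.2 TPM and the processed pseudogenes Rps3a2 at 44.9 TPM and Rpl6l at 13.5 TPM, so a gap separated members from the rest. Reads can be split between a member and its processed copies: 297 pseudogenes were named after 59 members, and their counts reached 12.9% of those of Rps13 and 5.76% of those of Rps15a, with a median of 0.0124% over the members. Only symbols made of a member's symbol and the ending -ps were counted. Copies under any other name are left out, so these shares may be too low.

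As a share of all expected counts, the 84 members took less of the RNA of genipin libraries than of any other library. The share was 17.97%, 18.18% and 18.05% in the vehicle libraries and 14.71%, 14.90% and 15.05% with genipin. The NAC libraries had 17.38%, 17.33% and 17.14%, and those given genipin and NAC together 17.70%, 18.09% and 18.19%. The means were 18.07 ± 0.103% with vehicle, 14.89 ± 0.171% with genipin, 17.99 ± 0.26% with both and 17.28 ± 0.125% with NAC (SD, n = 3). The genipin libraries did not overlap with any other group, the libraries with both compounds overlapped with vehicle, and the NAC libraries lay between. With genipin, the large subunit share stood at 80.6% of its vehicle level, the small subunit share at 83.6%, the elongation factors at 81.7% and the P stalk at 92.6%. The group means of both subunits had the same order as those of all members. The elongation factors differed in that their mean was highest with both compounds (3.92% of counts against 3.87% with vehicle, with overlapping libraries), and the P stalk in that its mean was lowest with NAC (0.794% against 0.805% with genipin, also overlapping). As a share of TPM, which weights short transcripts more, the means were 35.01 ± 0.223% with vehicle, 30.22 ± 0.215% with genipin, 36.0 ± 0.412% with both and 35.66 ± 0.211% with NAC. On that scale the genipin libraries were again the lowest, but the NAC libraries were above the vehicle libraries. These shares sum over chosen genes and were not tested. With genipin, mitochondrially encoded transcripts moved the other way, from 1.62 ± 0.0255% of counts for vehicle to 2.13 ± 0.0644%. They took 1.69 ± 0.101% for both and 1.61 ± 0.0225% for NAC, near the vehicle level. Their part in the result was not tested.

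**Figure D1:**
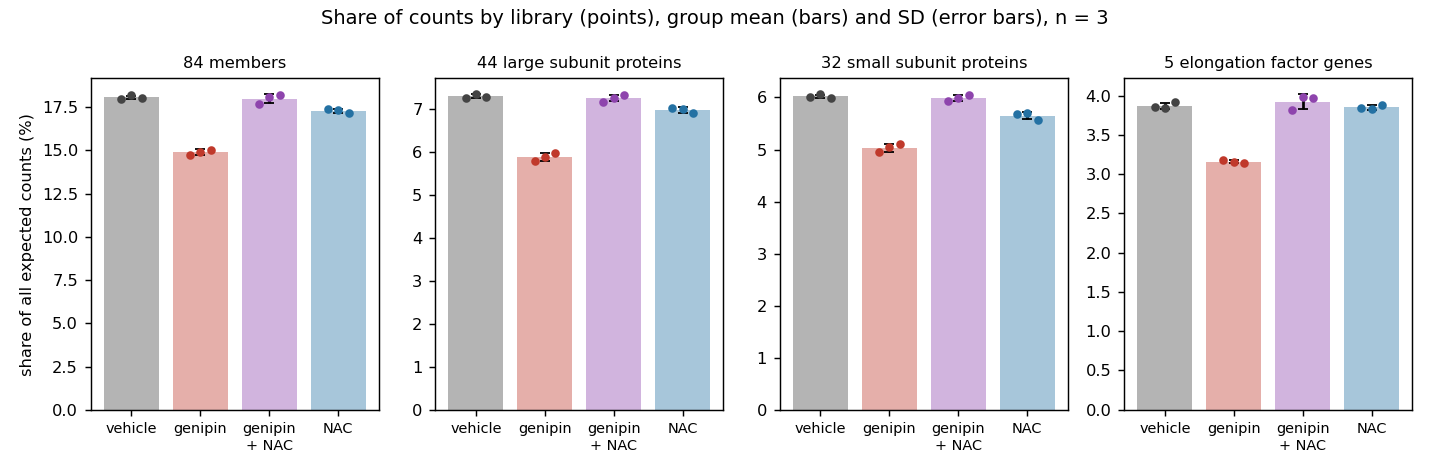
Share of all expected counts (%, vertical axis) taken by the 84 members and by 3 of their classes, in each library (points), with group means (bars) and SD (error bars, n = 3). For all members, the 3 genipin libraries sit between 14.71% and 15.05%, below the other 9.

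The comparison of genipin with vehicle asks what the compound changed in the absence of NAC. Nearly every member was lower with genipin: 79 of 84 were called lower and 1 higher, where a call is an adjusted p under 0.05 in the edgeR quasi-likelihood test over all 13636 genes tested. Over all genes, 31.0% were called lower and 29.9% higher. The median log2 fold change of the members was -0.355 (78.2% of the vehicle level), with quartiles at -0.424 and -0.24, beside a median of -0.008 over all genes. In CPM, which are counts divided by the TMM-scaled library total, all 3 genipin libraries lay below all 3 vehicle libraries for 78 members, and such a separation downwards held for 33.7% of all genes. The fall was moderate in size, since 48 members were called lower in edgeR's test against a change of 1.2-fold and 0 higher (0 also at an unadjusted p under 0.05), beside 17.0% and 13.4% of all genes. Part of it depended on the scaling: with limma on log2(TPM + 0.1), where the median of all genes shifted by 0.12, the median of the members was -0.224, and 63 were called lower and 4 higher, beside 18.8% and 36.1% of all genes.

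**Figure D2:**
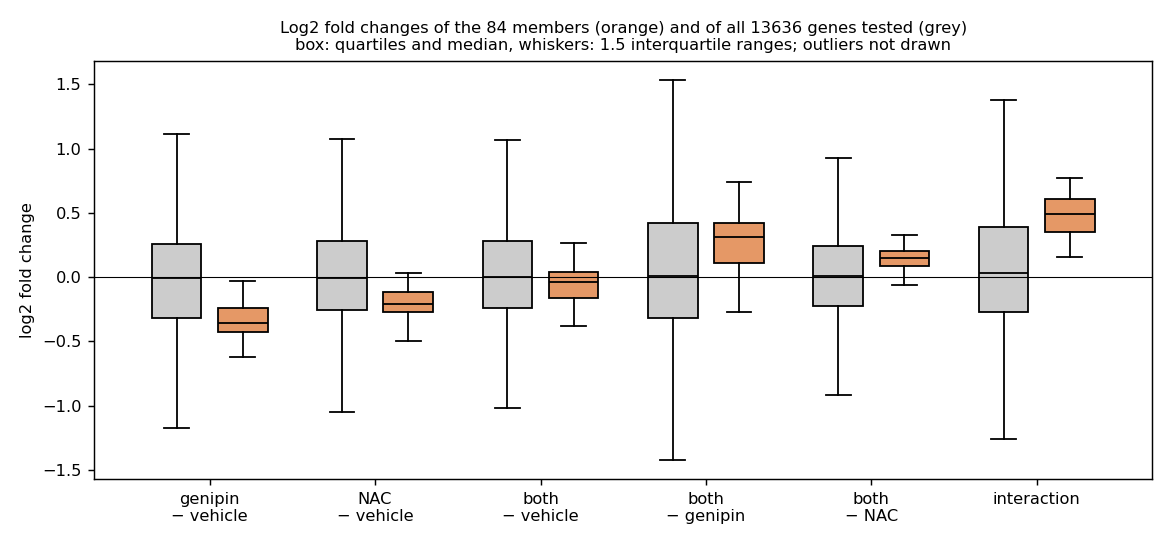
Log2 fold changes (vertical axis) of the 84 members (orange) and of all 13636 genes tested (grey) in the 6 contrasts, as boxes of quartiles and median with whiskers of 1.5 interquartile ranges and no points beyond them. "Both" is genipin with NAC, and the interaction is the difference of the genipin effects (with NAC minus without). The member boxes lie below 0 for genipin and for NAC against vehicle, and above 0 for both compounds against genipin.

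Among the large subunit proteins, 42 of 44 were called lower with genipin, with a median of -0.366. Rpl24, which forms a bridge to the small subunit, fell furthest (ENSMUSG00000098274.7, chromosome 16, 55966275 to 55971435, mm10). Vehicle libraries had 971, 969 and 971 CPM, genipin libraries 631, 623 and 635, those with both compounds 1063, 1038 and 1054, and NAC libraries 996, 983 and 991. The genipin libraries were the lowest and the other 9 lay together, with both compounds highest. The log2 fold change of Rpl24 with genipin was -0.62 ± 0.02 (SE; edgeR adjusted p = 4.06e-15). Rpl17, at the exit of the peptide tunnel, followed with -0.61 ± 0.03, and Rpl36 with -0.58 ± 0.04. The falls of Rpl22 (-0.57 ± 0.03), an RNA-binding protein needed for the development of alpha-beta T cells, and of its paralog Rpl22l1 (-0.57 ± 0.04) were close to these. Rpl3, which lies near the peptidyl transferase centre, had a log2 fold change of -0.55 ± 0.02. It stood at 4756, 4771 and 4770 CPM with vehicle against 3242, 3289 and 3247 with genipin, with no overlap.

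Among the small subunit proteins, 29 of 32 were called lower and 1 higher, with a median of -0.365. Rps14, a protein of the mRNA platform, showed the widest fall there with -0.57 ± 0.03. Rps18, the small subunit transcript with the highest TPM (ENSMUSG00000008668.15, chromosome 17, 33951999 to 33956001), had 3507, 3459 and 3400 CPM with vehicle and 2592, 2587 and 2515 with genipin. With both compounds its values were 3430, 3399 and 3440 CPM, and with NAC 2887, 2949 and 2761 CPM. Genipin libraries were lowest, NAC libraries came next, and the libraries with both compounds overlapped with vehicle. Its log2 fold change with genipin was -0.43 ± 0.03 (edgeR adjusted p = 9.26e-12). Rpsa, the small subunit protein also known as the laminin receptor precursor, fell by 0.21 on the log2 scale, near the smaller end.

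All 5 elongation factors and all 3 stalk proteins were called lower with genipin. Eef1a1 alone took 2.72 ± 0.0564% of all counts with vehicle and 2.13 ± 0.0156% with genipin (ENSMUSG00000037742.14, chromosome 9, 78478449 to 78489151). The vehicle libraries had 28030, 27956 and 29044 CPM, the genipin libraries 21262, 21231 and 21036, those with both compounds 28284, 29836 and 29624, and the NAC libraries 26255, 26351 and 26944. The genipin libraries stood apart below all others. The log2 fold change was -0.42 ± 0.02 (edgeR adjusted p = 3e-12). The exchange complex genes Eef1d (-0.34 ± 0.04), Eef1g (-0.29 ± 0.02) and Eef1b2 (-0.24 ± 0.02) followed, and Eef2 had -0.19 ± 0.03. In the P stalk, which recruits the elongation factors, the values were -0.23 ± 0.05 for Rplp1, -0.22 ± 0.03 for Rplp2 and -0.14 ± 0.03 for Rplp0. For Rplp0, Rplp1, Rplp2, Rpsa, Eef2 and Eef1b2 the falls were of a size that the choice of scale decides: on the TPM scale they were not called, and the value for Rplp0 was -0.005.

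The exceptions were few. Rps26, Rps28, Rpl10 and Rpl37a were the 4 members not called in that comparison from the counts. On the TPM scale, Rps26 (0.095) and Rps28 (0.07) were called higher with genipin, while Rpl10 and Rpl37a were again not called. Rps26, which touches the mRNA at the exit channel (ENSMUSG00000025362.6, chromosome 10, 128624534 to 128626747), had 996, 1018 and 989 CPM with vehicle and 941, 978 and 1017 with genipin. Those groups overlapped, and its log2 fold change was -0.03 ± 0.03. With both compounds it had 766, 824 and 841 CPM and with NAC 754, 751 and 722 CPM, all lower than without NAC. Rps28, also near the exit channel, had similar values, with -0.05 ± 0.04 for genipin and -0.36 ± 0.04 for NAC. Rpl10, which joins the large subunit late in its assembly, had -0.03 ± 0.03 with genipin and 0.15 ± 0.03 with both compounds against vehicle. Rpl37a was spread more widely within groups than the others, from 619 to 883 CPM over the NAC libraries, and had -0.14 ± 0.08. Rps20 was the one member called in opposite directions on the 2 scales, with -0.08 ± 0.03 from the counts (edgeR adjusted p = 0.0372) and 0.14 on the TPM scale.

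**Figure D3:**
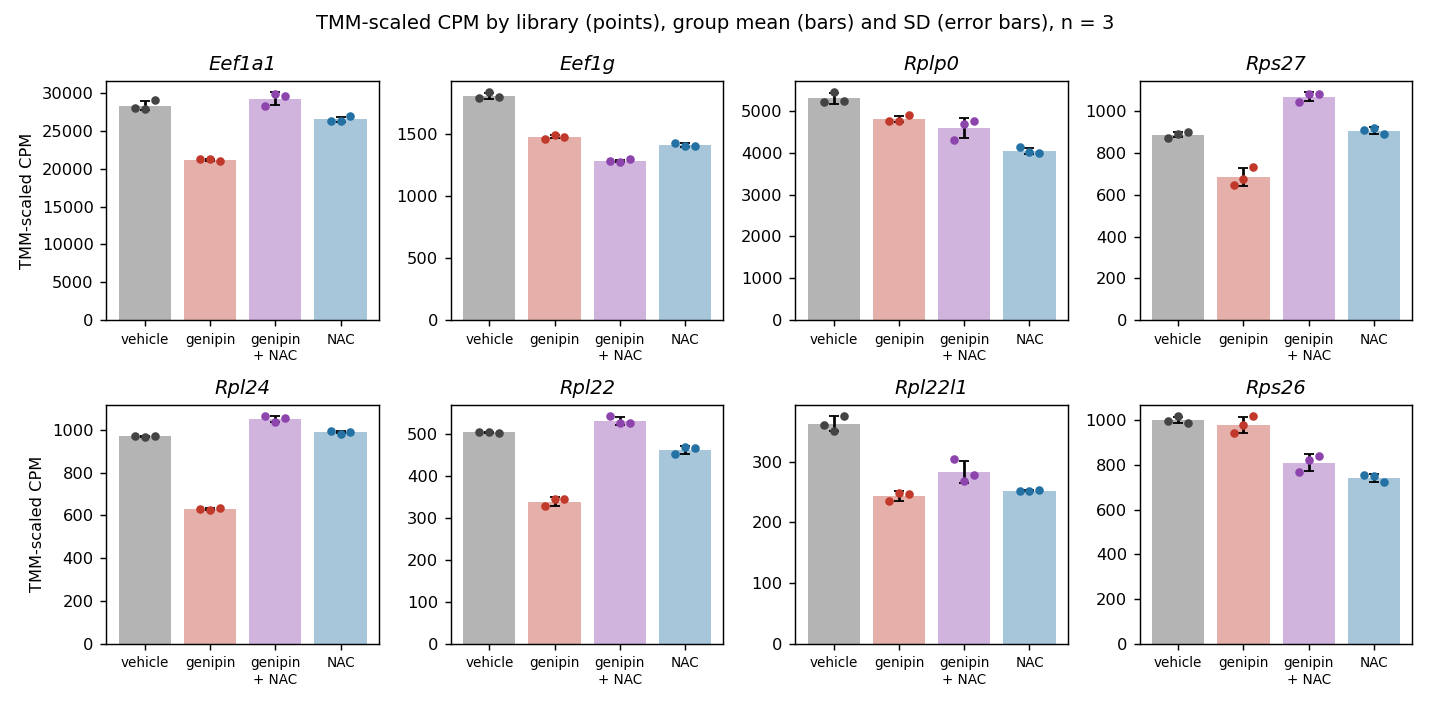
TMM-scaled CPM (vertical axes, from 0) of 8 members in each library (points), with group means (bars) and SD (error bars, n = 3). Eef1a1, Rpl24 and Rpl22 are lowest in the genipin libraries, Rps26 is low in the 6 libraries with NAC, Rps27 is highest with both compounds, and Eef1g and Rpl22l1 are below vehicle in all 3 treated groups.

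NAC alone was compared with vehicle to show the effect of the antioxidant without genipin. From the counts, 72 of 84 members were called lower and 0 higher, beside 30.0% and 29.6% of all genes, with a median of -0.209 against -0.005 over all genes. At an unadjusted p under 0.05, and with DESeq2 or limma-voom, the count of higher members was also 0, and the largest value was 0.03 ± 0.03, for Rps27. These calls depend on the scaling. With no normalization factors 47 members were called lower and 8 higher, beside 19.8% and 41.2% of all genes, and with limma on log2(TPM + 0.1) 19 were lower and 22 higher, beside 12.4% and 42.5%. On the TPM scale the median of all genes was itself raised by 0.18 and that of the members was 0.01. Relative to the median of all genes, all 72 members called lower were on the lower side on both scales, but 32 of them had a log2 TPM difference above 0, Eef1a1 (0.13) and Rpl36 among them.

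Several members with large falls under NAC were lower on either scale. Rpl22l1 had -0.52 ± 0.04 (-0.30 on the TPM scale), from 361, 351 and 375 CPM with vehicle to 253, 252 and 253 with NAC, without overlap. Rps25, a head protein needed by several viral internal entry sites, had -0.49 ± 0.04 (-0.28 on the TPM scale). Rps26 had -0.43 ± 0.03 (-0.22). The elongation factors Eef1g (-0.36 ± 0.02) and Eef1b2 (-0.34 ± 0.02) and the stalk base Rplp0 (-0.39 ± 0.03) were lower too, with TPM-scale values of -0.15, -0.14 and -0.19. For Eef1a1 the count-based value was -0.10 ± 0.02 and the TPM-scale value was 0.13, called in opposite directions.

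With both compounds, the members were close to their vehicle levels as a group. Against vehicle, 36 were called lower, 10 higher and 38 neither, beside 28.9% and 28.5% of all genes called lower and higher, and the median was -0.038 against 0.005. Rps27, a zinc-finger protein of the small subunit, rose most (0.27 ± 0.04), followed by Rpl39 (0.20 ± 0.04), which lines the peptide tunnel, Rps15a (0.18 ± 0.03), Rpl10 (0.15 ± 0.03) and Rpl24 (0.12 ± 0.02). Large falls included those of Eef1g (-0.50 ± 0.02), Rps27l (-0.49 ± 0.04), Rps25 (-0.38 ± 0.04) and Rpl22l1 (-0.35 ± 0.04). Eef1g, the scaffold subunit of the exchange complex (ENSMUSG00000071644.10, chromosome 19, 8967041 to 8978479), had 1790, 1833 and 1798 CPM in the vehicle libraries and 1461, 1487 and 1478 under genipin. It had 1427, 1404 and 1401 CPM under NAC and 1278, 1272 and 1293 under both. Its 4 groups did not overlap, and both compounds gave the lowest values. All 10 rises kept their sign on the TPM scale, as did 31 of the 36 falls. The count of rises was sensitive to 1 library: without replicate 1 of the group with both compounds it was 22.

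Against genipin alone, adding NAC raised most members. In this comparison 67 of 84 were called higher and 11 lower, beside 35.0% and 34.3% of all genes, with a median of 0.312 against 0.008. Of the large subunit proteins 39 of 44 were higher and 2 lower, of the small subunit proteins 23 of 32 were higher and 8 lower. Rpl24 rose most (0.74 ± 0.02, edgeR adjusted p = 9.45e-17), then Rpl17 (0.67 ± 0.03), Rpl22 (0.65 ± 0.03), Rps27 (0.64 ± 0.04) and Rpl36 (0.60 ± 0.04). Eef1a1 rose by 0.47 ± 0.02, and Eef1d and Rplp1 each by 0.27. The falls included those of Rps26 (-0.27 ± 0.03), Eef1g (-0.20 ± 0.02), Rps28 (-0.18 ± 0.04) and Rpl31 (-0.16 ± 0.03). Eef2 (0.05 ± 0.03) and Rplp0 (-0.07 ± 0.03) were not called. The TPM scale gave 57 higher and 13 lower, beside 27.1% and 34.6% of all genes. Against a 1.2-fold change, 40 members were higher and 1 lower, beside 23.2% and 19.8% of all genes.

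Against NAC alone, adding genipin gave small positive values. From the counts 65 of 84 members were called higher and 2 lower, beside 26.6% and 26.5% of all genes, with a median of 0.15 against 0.009. The values were small: edgeR's test against a 1.2-fold change called 0 members in either direction (2 higher and 0 lower at an unadjusted p under 0.05), beside 10.4% of all genes higher and 11.4% lower. They also depend on the scaling: on the TPM scale 13 were called higher and 10 lower, beside 12.2% and 33.7% of all genes, where the median of all genes lay at -0.12 and that of the members at 0.01. Rpl37a had the largest value (0.33 ± 0.08), then Rps15a (0.31 ± 0.03), Rpl34 (0.30 ± 0.03), Rps24 (0.28 ± 0.03) and Rpl39 (0.27 ± 0.04). The members called lower were Rps27l (-0.19 ± 0.04) and Eef1g (-0.14 ± 0.02), and both were lower on the TPM scale as well (-0.33 and -0.28).

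The interaction compares the genipin effect with NAC to that without it, and it tests whether these differ. From the counts, 83 of 84 members had a more positive genipin effect with NAC and 1 a more negative one, beside 27.4% and 24.0% of all genes, with a median of 0.495 against 0.032. The value was positive for all 44 large subunit proteins, for all stalk proteins and elongation factors, and for 31 of 32 small subunit proteins. Rpl17 (0.78 ± 0.04), Rps14 (0.77 ± 0.04), Rpl22 (0.77 ± 0.04), Rpl36 (0.76 ± 0.06) and Rpl9 (0.75 ± 0.04) had the largest values, and Eef1a1 had 0.56 ± 0.03. The count of more negative effects was 0 without replicate 3 of the group with both compounds, without NAC replicate 2 and under an adjusted p of 0.01. On the TPM scale, where the median of all genes was -0.23, 54 members were called higher and 2 lower, beside 11.9% and 38.1% of all genes. There 13 of the 83 had values under 0, among them Eef2, Eef1g, Rps26, Rps28, Rps27l, Rpl31 and Rps4x. Eef1g (-0.12) was called lower there, though all 83 lay above the median of all genes.

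Set against each other across the 82 members plotted, the genipin effects with and without NAC, which share no library, had Pearson r = -0.098 and Spearman rho = -0.152 (n = 82 genes). Over all genes r was 0.294. The NAC effects with and without genipin had r = 0.642 and rho = 0.569 over these members, and r = 0.57 over all genes. Members with low values under NAC without genipin thus tended to have low values under NAC with genipin. Genes measured in the same libraries are not independent replicates, and no test is attached to these values.

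**Figure D4:**
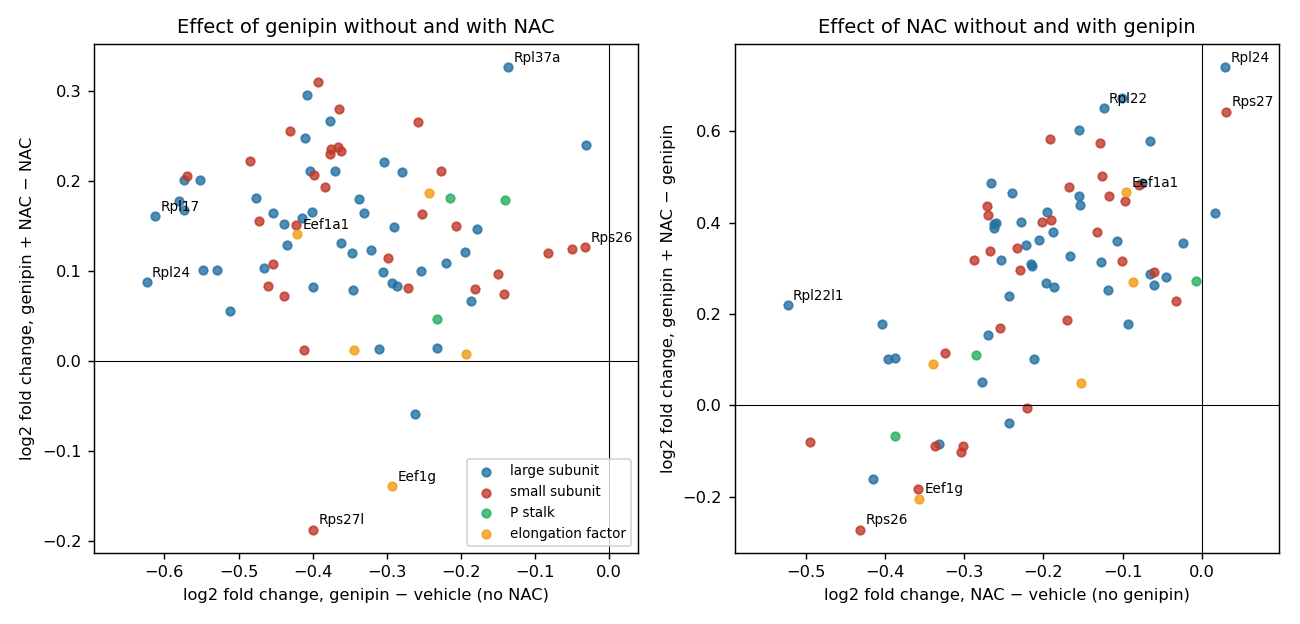
Log2 fold changes of 82 members, coloured by class. The left panel sets the genipin effect without NAC (horizontal) against that with NAC (vertical), and the right panel sets the NAC effect without genipin (horizontal) against that with genipin (vertical). Points in the left panel show no common slope (r = -0.098), while those in the right panel rise together (r = 0.642).

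The paralog pairs of the ribosome could be compared within each library, per length, on the TPM scale. Rpl22l1 stood at 69.4%, 67.0% and 72.2% of the level of Rpl22 with vehicle and at 63.0%, 64.1% and 63.6% with genipin. With both compounds it stood at 53.1%, 49.6% and 50.5% and with NAC at 55.5%, 52.4% and 53.5%. The ratio was thus lower in all 6 libraries with NAC than in the 6 without it. Rps27l stood at 9.16 ± 0.131% of the level of Rps27 with vehicle, 9.09 ± 0.283% with genipin, 5.41 ± 0.302% with both and 7.23 ± 0.215% with NAC (SD, n = 3). The vehicle and genipin libraries overlapped, NAC lay below them, and both compounds gave the lowest ratio.

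Rps27l, a close copy of Rps27 whose gene is a target of p53, had 173, 179 and 175 CPM in vehicle libraries, 128, 136 and 136 in genipin libraries, 128, 124 and 124 where both were given, and 144, 147 and 136 in NAC libraries. Rps27 had 874, 891 and 901 CPM in vehicle libraries, 646, 677 and 732 in genipin libraries, 1045, 1082 and 1081 where both were given, and 911, 922 and 890 in NAC libraries. The pair therefore parted with both compounds, where Rps27 was highest and Rps27l lowest. Rpl36al, a copy of Rpl36a that the symbol rule does not reach, had -0.49 ± 0.04 with genipin, and Rpl36a had -0.35 ± 0.03. Rpl7l1, a nucleolar relative of Rpl7, was not called with genipin (-0.09 ± 0.04) and was lower with NAC (-0.54 ± 0.04), while Rpl7 had -0.32 ± 0.03 and -0.19 ± 0.03. The other copies were near or at 0: Rpl39l had 22 to 49 counts a library, and Rps4l, annotated as a transcribed processed pseudogene, 6 to 27. Rpl3l and Eef1a2 had at most 1, and Rpl10l had 0 in every library, which allows up to 3 counts in each for counting error only. Rpl3, Rpl39, Rps4x and Rpl10 thus carried nearly all counts of their pairs.

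The members could also be set against the median member of the same library, a measure that does not depend on scaling between libraries. The distance of Rpl24 from the median member was -0.90 with vehicle, -1.16 with genipin, -0.65 with both compounds and -0.61 with NAC on the log2 scale, a range of 0.553 beside a largest SD within a group of 0.048. Rps26 lay at -0.86 with vehicle, -0.52 with genipin and -1.02 in both NAC groups, a range of 0.499. Wide ranges were also those of Rpl17 (0.446), Eef1g (0.431), Rpl22 (0.423) and Rps27 (0.417). The directions differed. Rps26 was relatively high with genipin and low with NAC, while Rpl24 and Rpl17 were relatively low with genipin and high in both NAC groups.

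**Figure D5:**
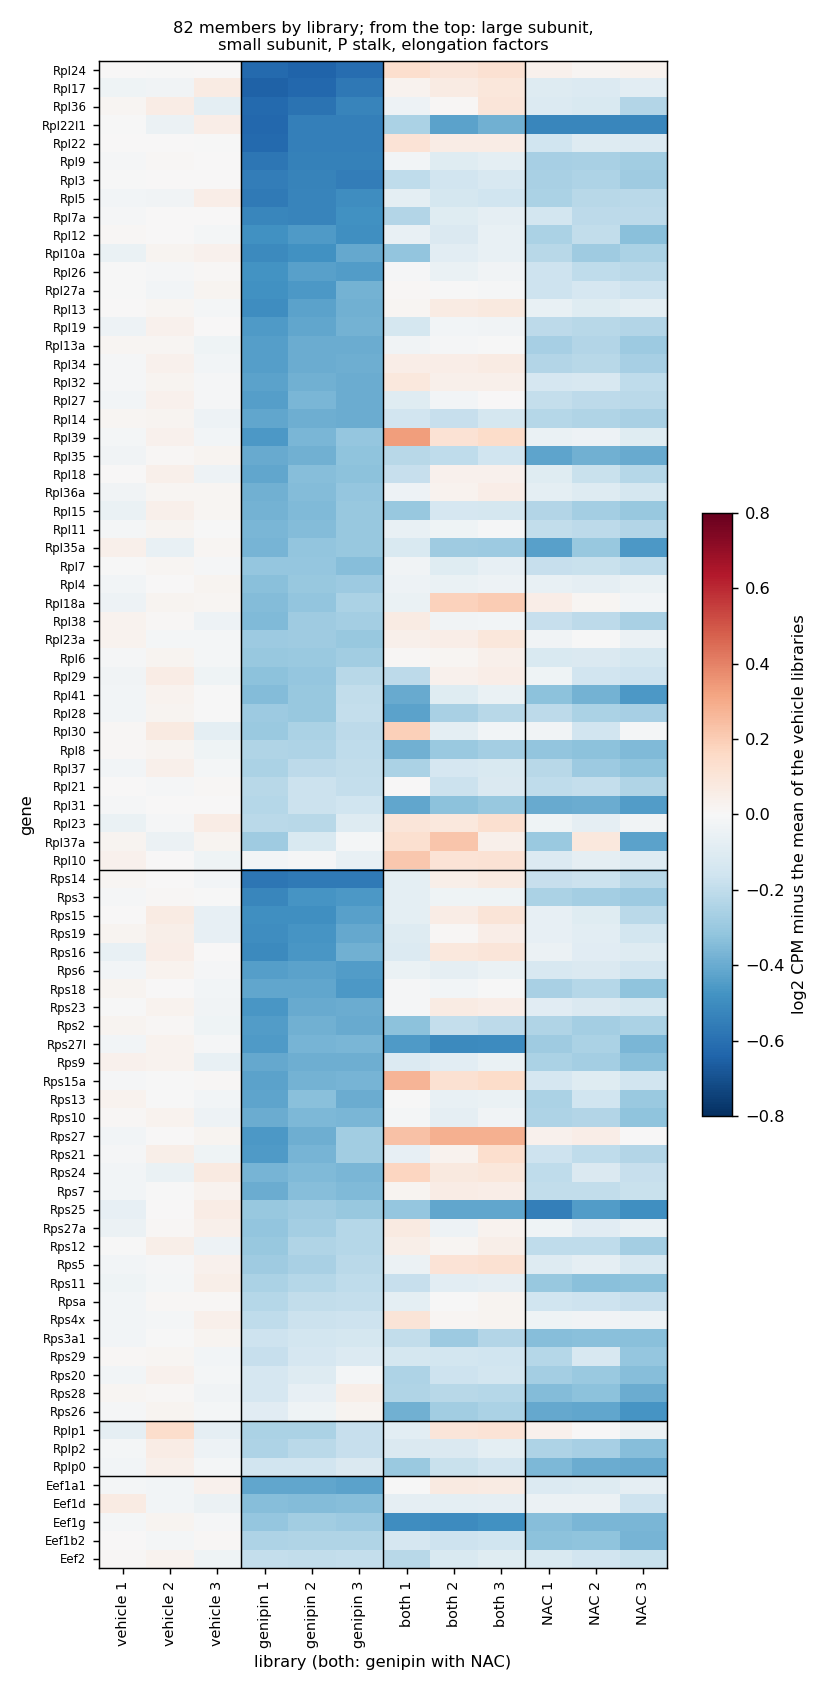
Log2 CPM of 82 members (rows) in each of the 12 libraries (columns), minus the mean of the vehicle libraries, with blue for lower and red for higher values. Rows are ordered by class and then by the genipin value. The genipin columns are blue but for a few pale rows, and the columns with both compounds mix red and blue.

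The pyrimidine run near the annotated start, which need not be a TOP motif, could be set beside the genipin values of the members. The 51 members with a run of at least 8 bases had a median log2 fold change of -0.393 with genipin, from -0.574 to -0.032. The 11 without a run of that length had a median of -0.193, from -0.624 to -0.05. Shorter runs occur among these 11, with 7 bases in Eef2 and Rpsa, so the split does not part TOP from other transcripts. The ranges overlapped, and Rpl24, which fell most, had only 6 bases in its window. Members with CCGGAAGT (13 genes) had a median of -0.338 and those without it (49) -0.377. These are descriptions with no test.

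Other genes of the translation machinery did not all follow the members. Among ribosomal proteins with other symbols, Fau (-0.51), Rpl36al (-0.49) and Rack1 (-0.36) were called lower with genipin, and each was higher with both compounds than with genipin. Of 16 other genes with TOP transcripts, 14 were lower and 1 higher with genipin, with a median of -0.318, beside 31.0% of all genes lower and 29.9% higher. With both compounds against genipin, 11 were higher and 3 lower, beside 35.0% and 34.3% of all genes. Against NAC, both compounds gave 5 higher and 7 lower, beside 26.6% and 26.5% of all genes, with a median of -0.044. The 16 genes included the intermediate filament gene Vim (-1.33 with genipin), the snoRNA host Gas5 (-0.81), the nucleolar chaperone Npm1 (-0.63) and Hnrnpa1 (-0.53). Eif3h, Eif3l and Pabpc1 are among these 16 and also among the initiation factor genes. Of 39 initiation factor genes, 20 were lower and 9 higher with genipin, with a median of -0.074, beside the same 31.0% and 29.9% of all genes. The helicase gene Eif4a2 was the most affected (-1.05 with genipin and 1.34 with both compounds against genipin), while Eif4g2 was higher with genipin (0.44).

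Of 15 other elongation and termination genes tested, 6 were lower and 2 higher with genipin, with a median of -0.013, beside 31.0% and 29.9% of all genes. Eef2k, the kinase that inhibits Eef2, had 0.02 with genipin and -0.66 with NAC. Of 27 genes listed for the control of TOP transcripts, 11 were higher and 9 lower with genipin, beside 29.9% and 31.0% of all genes. The median of that list was -0.005. It reaches beyond mTORC1 and Larp1, with Rictor, Rps6ka1, Rps6ka3 and Larp4 among its genes. Within the list, Eif4ebp1, the translation repressor that mTORC1 inactivates, had -1.68 with genipin, 0.56 with NAC and 1.95 with both compounds against genipin. Transcript levels do not measure the activity of that pathway. The list medians stand beside -0.355 for the members and -0.008 for all genes tested.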

How the data were processed

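Total RNA of 12 libraries was sequenced after removal of ribosomal RNA, in paired reads of 150 bases, per the labels' protocols. Per the submitters' processing notes, bcl2fastq, cutadapt 1.18, STAR 2.7.0f, RSEM 1.3.1 and mm10 were used. The authors deposited 1 gene table per library with expected counts, TPM, FPKM, lengths and effective lengths, per the file headers. The 55450 gene IDs match GENCODE M21, also in symbol, and coordinates were taken from it. FPKM, deposited beside TPM, were not used.

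Groups came from the labels. The members and gene lists were chosen with earlier results of these data known. Expected counts, as deposited, were rounded and tested with edgeR 4.0.16 (R 4.3.3): filterByExpr, TMM factors (0.961 to 1.05), 1 mean per group over all 12 libraries (8 residual and 12.6 prior degrees of freedom), quasi-likelihood F tests of 6 contrasts, and Benjamini-Hochberg adjustment over 13636 genes, with calls at 0.05. The common biological coefficient of variation was 0.0393. SE is the absolute log2 fold change over the square root of F. The steps were tested on simulated data.

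Named were the stalk, Rpsa and elongation factor genes, the 5 largest called rises and falls per contrast, the paralog pairs, the 3 highest and 3 lowest members and 3 genes under the threshold, and up to 4 genes of each companion list with the smallest p. Some genes that enter the counts and medians are not reported here. Rps20, Npm1 and some genes given for the scale comparison were chosen after their values were seen. The pseudocount of 0.1 on the TPM scale was also chosen then. Other settings used DESeq2 1.42.0 and limma 3.58.1, and figures matplotlib 3.10.9.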

Additional observations from a re-analysis of the deposited data

Results flagged for a closer look

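A closer look is warranted at the genipin effects that differ between cells with and without NAC. In the edgeR test of the interaction (the genipin effect in the presence of NAC less that in its absence), all 33 members given here passed at adjusted p under 0.05, as did 83 of all 84 members in the positive direction, beside 27.4% of all genes. Values are log2 differences. Among the large subunit proteins they were 0.77 for Rpl17 and Rpl22, 0.76 for Rpl36, 0.75 for Rpl9, 0.74 for Rpl22l1, 0.71 for Rpl24, 0.7 for Rpl34, 0.65 for Rpl3 and 0.64 for Rpl39. Smaller ones were 0.47 for Rpl36a, 0.46 for Rpl37a, 0.45 for Rpl7, 0.27 for Rpl10 and 0.25 for Rpl31. Among the small subunit proteins they were 0.77 for Rps14, 0.7 for Rps15a, 0.69 for Rps18, 0.65 for Rps24, 0.61 for Rps27, and 0.41 for Rps25. Rpsa had 0.36, Rps4x 0.26, Rps27l 0.21, Rps28 0.18 and Rps26 0.16. In the stalk they were 0.4 for Rplp2, 0.32 for Rplp0 and 0.28 for Rplp1. The elongation factors had 0.56 (Eef1a1), 0.43 (Eef1b2), 0.36 (Eef1d), 0.2 (Eef2) and 0.15 (Eef1g). On the TPM scale, where the median of all genes was -0.23, the values of Eef1g, Eef2, Rps26, Rps28, Rps27l, Rpl31 and Rps4x fell under 0. That of Eef1g (-0.12) was called lower there. Values near 0 that were not called there included Rpl10 and Rplp1 (each 0.003), Rplp0 (0.046), Rpsa (0.052) and Eef1d (0.086). Of all 84 members, 54 were called higher on that scale and 2 lower.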

How the results depend on the processing

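Counts of members called lower and higher moved with the scale and the threshold. Against a 1.2-fold change they were 48 lower and 0 higher for genipin against vehicle, 16 lower for NAC, 8 lower and 0 higher for both compounds against vehicle, 40 higher and 1 lower against genipin, 0 and 0 against NAC, and 0 lower for the interaction. With no normalization factors, NAC gave 8 higher and 47 lower, both compounds 21 higher against vehicle and 40 higher and 6 lower against NAC. On log2(TPM + 0.1), a setting added after seeing the data, there were 4 higher for genipin, 22 higher and 19 lower for NAC, 26 higher and 21 lower for both compounds against vehicle, 13 higher and 10 lower against NAC, and 54 higher and 2 lower for the interaction. Adjusted p under 0.01 left 6 higher for both compounds against vehicle and 0 lower for the interaction. A mean of at least 5 CPM gave 18 higher against vehicle and 5 lower against genipin for both compounds.

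Leaving out each library in turn gave 7 to 22 members higher with both compounds against vehicle (22 without replicate 1 of that group), 7 to 11 lower against genipin (7 without genipin replicate 3) and 0 to 1 lower for the interaction. The other counts stayed within 1.5 times. Signs turned with no normalization factors for NAC against vehicle in Eef1a1 (0.024), Eef1d (0.033), Rpl10 (0.027), Rpl17 (0.018), Rpl36a (0.012), Rplp1 (0.113) and Rps4x (0.086), and for both compounds against NAC in Eef2 (-0.071). That setting and the TPM scale move the median of all genes, without factors by 0.114 for NAC and -0.112 for the interaction. For the named genes, single-gene values were compared over settings that did not include the TPM scale. Of these values, 3447 kept their call, 79 lost it and 30 gained it. A sign change with no call in either fit counted as kept. The cause was not tested. On the TPM scale, 32 of the 72 members called lower with NAC had the other sign, and 12 of these were called higher. For both compounds against NAC, 20 of the 65 called higher had the other sign, and 1 was called lower. Scaling from genes other than the members, also added later, changed no call of a named gene.

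The share of counts was 18.39%, 15.23%, 18.33% and 17.58% (vehicle, genipin, both, NAC) with abundant RNAs left out, 35.01%, 30.22%, 36.0% and 35.66% of TPM, and 18.18% for vehicle with the pseudogenes named after members added. Replicate numbers did not pair libraries (correlations of -0.0751 to 0.0437 over 18 pairs, 4 of 12 libraries best with their own number). With the replicate block, members called higher and lower were 1 and 79 for genipin, 0 and 72 for NAC, 9 and 34, 66 and 10, and 66 and 2 for both compounds against vehicle, genipin and NAC, and 83 and 1 for the interaction. Fitting only the groups compared gives no interaction value. With 3 libraries a group and unknown replicate origin, small differences depend on scaling, and counts near pseudogenes on read assignment.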
